A study of Mus musculus with 4 samples.

Results

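The guanylate-binding proteins examined here are the 9 genes Gbp2, Gbp3, Gbp4, Gbp5, Gbp6, Gbp7, Gbp8, Gbp9 and Gbp10, taken from the deposited expression table by gene symbol. All 9 were among its 17039 genes, and all 9 were among the 12887 genes tested. RNA was sequenced from T cells that had been magnetically sorted from the spleens of C57BL/6 mice, which the series title names as CD8+. The AAV-IL-27 group consists of 2 mice (replicates 1 and 3) that had received, by injection into muscle, a recombinant adeno-associated virus that carries the cytokine interleukin-27 (IL-27), about a month before the cells were taken. The AAV-ctrl group consists of 2 mice (replicates 1 and 3) that had received a control recombinant virus in the same way. Age and sex are not given in the sources used here, nor is the promoter that drives IL-27. The cytokine came from the virus in the animal, so these cells had not been exposed to IL-27 alone.

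Guanylate-binding proteins are large GTPases related to the dynamins. They are strongly induced by interferons, in part through the interferon regulatory factors, and they are best known for coating bacteria, parasites and the vacuoles that hold them, where they recruit other defence proteins. In the mouse the genes lie in a pair of tandem clusters, on chromosomes 3 and 5, and several of them are recent duplicates with nearly the same sequence. The receptor of IL-27 is built of Il27ra and Il6st and signals through Janus kinases.

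Of the 9 genes, 4 were matched to an upstream sequence, Gbp2, Gbp3, Gbp5 and Gbp7, all on chromosome 3, and all 4 are shown. Upstream sequences of Gbp4, Gbp6, Gbp8, Gbp9 and Gbp10 were not used here. Those shown are the 250 bases before a transcription start in RefSeq (build GRCm38.p6, plus strand, 5′ to 3′), and distances count from that start. Some annotated gene spans begin before the end of the window. They begin at 142620602 for Gbp2 and 142493978 for Gbp5 in GENCODE M21, and at 142560016 for Gbp3 in RefSeq. The whole Gbp5 window thus lies inside the GENCODE span of Gbp5. Capitals mark matches to the core of the interferon-stimulated response element (ISRE), GAAA, any 2 bases and GAAA, and to the core of the gamma-activated site (GAS), TTC, any 3 bases and GAA, on either strand.
Gbp5, chr3:142496684-142496933: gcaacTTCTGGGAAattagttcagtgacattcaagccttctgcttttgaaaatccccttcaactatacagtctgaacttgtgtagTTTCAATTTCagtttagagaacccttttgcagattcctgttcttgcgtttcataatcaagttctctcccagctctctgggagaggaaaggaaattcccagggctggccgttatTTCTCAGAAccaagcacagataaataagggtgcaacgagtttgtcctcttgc
Gbp7, chr3:142530086-142530335: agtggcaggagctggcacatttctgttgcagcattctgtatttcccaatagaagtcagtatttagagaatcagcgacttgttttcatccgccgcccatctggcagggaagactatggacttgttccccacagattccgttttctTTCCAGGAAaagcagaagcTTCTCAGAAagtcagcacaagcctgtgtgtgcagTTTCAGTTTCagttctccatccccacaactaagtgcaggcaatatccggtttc
Gbp3, chr3:142559794-142560043: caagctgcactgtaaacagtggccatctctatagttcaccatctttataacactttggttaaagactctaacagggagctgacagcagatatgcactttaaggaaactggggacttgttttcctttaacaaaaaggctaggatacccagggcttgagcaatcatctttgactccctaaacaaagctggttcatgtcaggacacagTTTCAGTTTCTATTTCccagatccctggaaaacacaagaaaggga
Gbp2, chr3:142620413-142620662: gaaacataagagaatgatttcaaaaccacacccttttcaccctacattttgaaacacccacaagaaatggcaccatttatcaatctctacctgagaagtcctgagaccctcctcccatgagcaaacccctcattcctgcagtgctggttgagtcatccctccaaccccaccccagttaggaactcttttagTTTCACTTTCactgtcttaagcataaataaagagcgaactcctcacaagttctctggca

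An ISRE core stood in the sequences of all 4 genes. In Gbp2 it was TTTCACTTTC, 59 to 50 bases before the RefSeq start, and in Gbp7 it was TTTCAGTTTC, 53 to 44 bases before it. The Gbp2 match (142620604 to 142620613) lies past the GENCODE start of that gene, at 142620602. Gbp3 had a pair of matches that overlap by 4 bases, TTTCAGTTTC and TTTCTATTTC, the first of them 45 to 36 bases before the start. In a second start window that RefSeq gives for Gbp3 there was no match to either core. Gbp5 had TTTCAATTTC, farther off at 165 to 156 bases. GAS cores were found in Gbp5 and Gbp7, with TTCTCAGAA in both, 52 to 44 bases before the start in Gbp5 and 87 to 79 bases before it in Gbp7. The second GAS core of Gbp7, TTCCAGGAA, lay 106 to 98 bases before the start, and that of Gbp5, TTCTGGGAA, 245 to 237 bases before it. No match of one core overlapped a match of the other. Of all 32851 upstream windows of this length, 2.98% held an ISRE core, 7.02% a GAS core and 0.332% both. A match is a stretch of letters and not a measured binding site. Whether any factor was bound there was not measured.

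**Figure D1:**
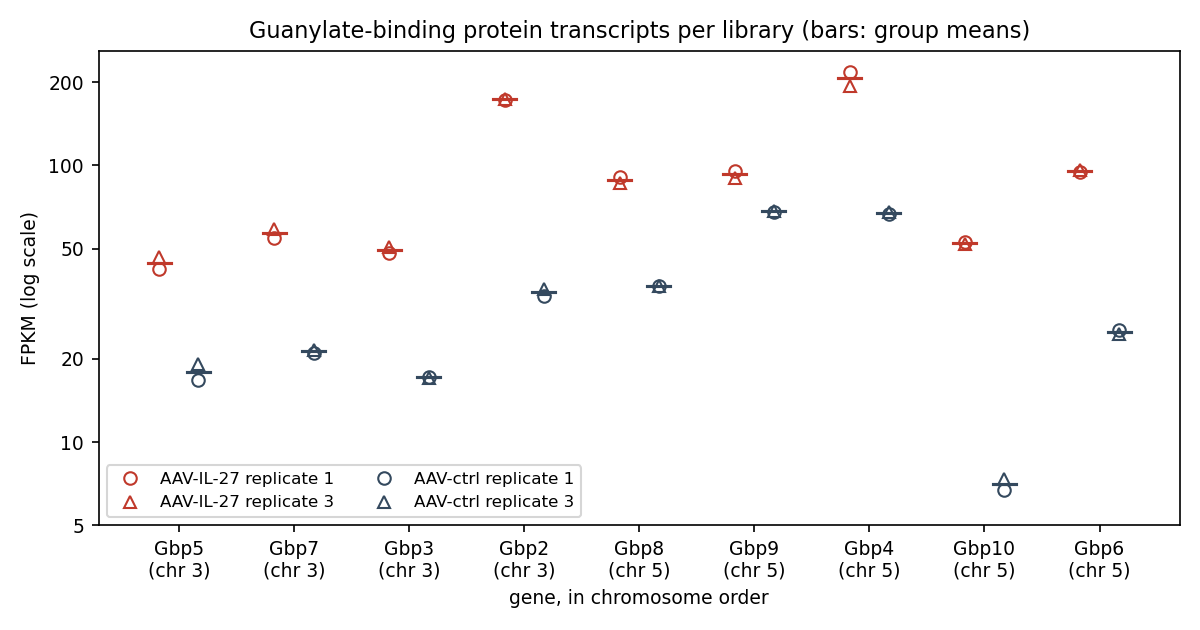
FPKM (log axis) of each guanylate-binding protein gene in each library, with AAV-IL-27 in red left of AAV-ctrl in dark blue; circles are replicate 1, triangles replicate 3 and bars group means. In each of the 9 genes both AAV-IL-27 libraries lie above both AAV-ctrl libraries, with the widest gap in Gbp10 and the narrowest in Gbp9.

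All 9 guanylate-binding protein genes rose in the AAV-IL-27 libraries, and in each of them the groups did not overlap. Called here are genes with an adjusted p under 0.05 in edgeR's quasi-likelihood test (Benjamini-Hochberg adjustment over the whole table). Among all tested genes 39.0% passed this test, 21.3% rose, 17.7% fell, and 5.25% rose at least 2-fold. Groups that did not overlap were found in 71.5% of the tested genes, and in 35.7% with AAV-IL-27 higher. Of the 9 members, 8 rose at least 2-fold, and the median log2 fold change of the 9 was 1.58, against -0.01 for all genes tested. Together the 9 genes took 0.316% and 0.306% of all counts in the AAV-IL-27 libraries, against 0.115% and 0.115% in the AAV-ctrl libraries. The libraries are bulk samples, so more RNA per cell and a larger share of expressing cells cannot be told apart. With 2 libraries against 2, an exact permutation test of any single gene could not give a two-sided p below 0.33, so the calls rest on the model fitted across all genes.

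Total counts ranged from 15742523 to 16182453 per library. The T cell label was met by high levels of T cell transcripts in both groups, with Cd8a at 408 and 349 FPKM in AAV-IL-27 libraries, against 321 and 335 FPKM in AAV-ctrl libraries. Of 18 T cell markers, 9 rose and 3 fell, but 4 and 1 when AAV-ctrl replicate 1 was left out, and 5 and 1 when AAV-ctrl replicate 3 was. Transcripts of other cells were present as well. Summed over 10 B cell markers, the level was 926 and 1287 FPKM in AAV-IL-27 and 2019 and 1773 FPKM in AAV-ctrl. Summed over 12 monocyte and macrophage markers it was 164 and 215 FPKM in AAV-IL-27 and 202 and 165 FPKM in AAV-ctrl. Of these 12 markers, 7 fell, 1 rose and 4 did not pass. Of 11 neutrophil markers, 9 rose, with a sum of 966 and 1587 FPKM in AAV-IL-27 and 34.0 and 25.4 FPKM in AAV-ctrl. When either AAV-ctrl library was left out, 3 of the 11 passed. Of 9 natural killer cell markers 7 fell, of 8 dendritic cell markers 2 rose and 1 fell, and the 5 tested erythroid markers did not pass. Myeloid cells are known to express guanylate-binding proteins. The summed FPKM of the 9 members was 870 in replicate 1 and 850 in replicate 3 of AAV-IL-27, against 292 and 299 in AAV-ctrl. Between the AAV-IL-27 libraries, 5 of the 9 members (Gbp2, Gbp3, Gbp5, Gbp6 and Gbp7) were higher in replicate 3, the one with more neutrophil transcripts, and 4 were lower. No marker of the lists was at 0 in all 4 libraries, and the part of these cells in the rise was not tested.

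On chromosome 3 the rises ran from 2.56-fold in Gbp5 to 5.17-fold in Gbp2. Gbp2 (NCBI Gene 14469, 142620663 to 142638008) is a prenylated member known for its recruitment to the vacuole of Toxoplasma gondii in mouse cells. It stood at 173 and 174 FPKM in AAV-IL-27 libraries and at 33.8 and 35.7 FPKM in AAV-ctrl libraries. The AAV-IL-27 libraries were both high and close together, far above the AAV-ctrl pair. The log2 fold change was 2.37 ± 0.052 (SE, n = 2 per group, edgeR adjusted p = 6.34e-09).

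Gbp5 (NCBI Gene 229898, 142496934 to 142522344), another prenylated member and known in mouse macrophages for promoting assembly of the NLRP3 inflammasome, was the lowest member in AAV-IL-27, at 42.1 and 46.6 FPKM, against 16.7 and 19.2 FPKM in AAV-ctrl. Replicate 3 was the higher library in both groups, and the groups did not overlap. It rose by 1.36 ± 0.079 on the log2 scale (edgeR adjusted p = 5.72e-06), with the widest error of the 9.

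Gbp7 (NCBI Gene 229900, 142530336 to 142550151), tied in mouse macrophages to the delivery of NADPH oxidase to phagosomes, stood at 54.9 and 58.8 FPKM in AAV-IL-27, against 21.01 and 21.61 FPKM in AAV-ctrl. Its groups lay well apart, with a log2 fold change of 1.47 ± 0.053 (edgeR adjusted p = 1.76e-07). Gbp3 (NCBI Gene 55932, 142560016 to 142573213) stood at 48.2 and 50.8 FPKM in AAV-IL-27, against 17.2 and 17.1 FPKM in AAV-ctrl, where the libraries were almost equal. It rose 2.99-fold (log2 fold change 1.58 ± 0.056, edgeR adjusted p = 1.51e-07).

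Gbp2b, which encodes mouse Gbp1 and lies in the same cluster, is not among the 9. It had 12.3 and 20.4 expected counts in AAV-IL-27 and 6.12 and 2.03 in AAV-ctrl, or 0.32 and 0.44 FPKM against 0.14 and 0.05 FPKM. These levels lay far below those of its neighbours. It passed the filter on low counts through the AAV-IL-27 libraries, and its log2 fold change of 1.98 ± 0.60 (edgeR adjusted p = 0.0266) was lost when AAV-IL-27 replicate 3 (adjusted p = 0.199), AAV-ctrl replicate 1 (adjusted p = 0.0651) or AAV-ctrl replicate 3 (adjusted p = 0.217) was left out, and by DESeq2 (adjusted p = 0.166).

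The chromosome 5 genes held both the largest and the smallest rise. Gbp10 (NCBI Gene 626578, 105215699 to 105239533) stood at 52.9 and 52.0 FPKM in AAV-IL-27, against 6.72 and 7.33 FPKM in AAV-ctrl, where it was the lowest of the 9. That is 7.73-fold (log2 fold change 2.95 ± 0.061, edgeR adjusted p = 4.47e-09), and 0.691% of tested genes had a larger one. Gbp6 (NCBI Gene 100702, 105270702 to 105295871) stood at 94.6 and 96.0 FPKM in AAV-IL-27, against 25.4 and 24.6 FPKM in AAV-ctrl, with libraries of a group within 1 FPKM of the group mean. Its log2 fold change was 1.97 ± 0.048 (edgeR adjusted p = 1.40e-08).

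Gbp4 (NCBI Gene 17472, 105115767 to 105139586), reported in the mouse to restrain the interferon regulatory factor IRF7, was the highest member in AAV-IL-27, at 218 and 194 FPKM, against 67.0 and 67.7 FPKM in AAV-ctrl. Its AAV-IL-27 libraries differed more than those of the other members, yet both lay far above AAV-ctrl, and it rose by 1.63 ± 0.068 (log2, edgeR adjusted p = 9.47e-07). Gbp8 (NCBI Gene 76074, 105012513 to 105053609) stood at 90.7 and 86.6 FPKM in AAV-IL-27, against 36.6 and 36.8 FPKM in AAV-ctrl. It rose 2.46-fold (log2 fold change 1.30 ± 0.051, edgeR adjusted p = 2.46e-07).

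Gbp9 (NCBI Gene 236573, 105076464 to 105110357) stood apart from the other 8. It stood at 95.8 and 90.2 FPKM in AAV-IL-27, against 67.9 and 68.6 FPKM in AAV-ctrl, where it was already the highest of the 9. The groups did not overlap, but the rise was 1.34-fold (log2 fold change 0.42 ± 0.048, edgeR adjusted p = 0.000156), and 15.8% of tested genes had a larger one. Scaled to T cell markers, it was 0.26 (adjusted p = 0.0348). Gbp4 had nearly the same level in AAV-ctrl and rose 3.09-fold.

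**Figure D2:**
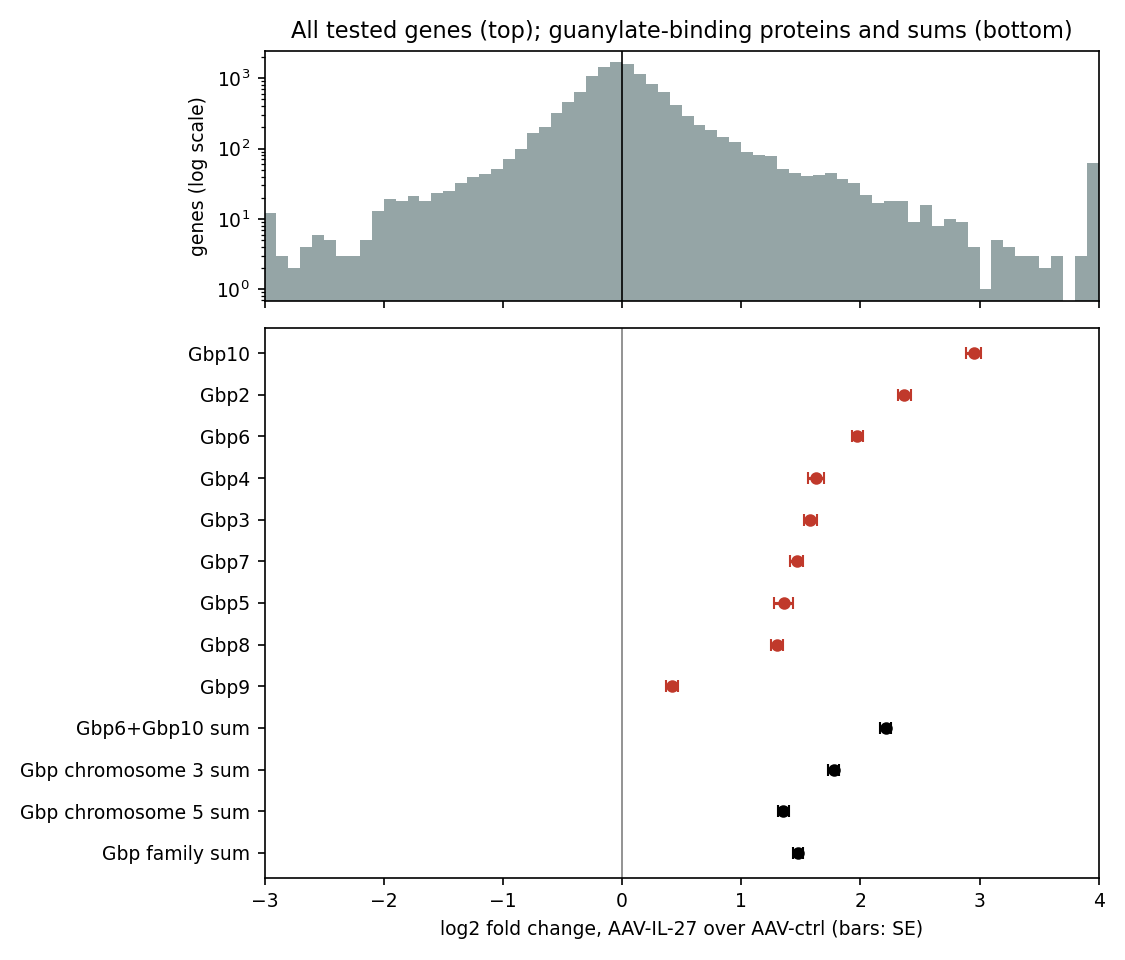
Top, number of tested genes (log axis) by log2 fold change of AAV-IL-27 over AAV-ctrl, where the outermost bins hold all values beyond them. Bottom, log2 fold change ± SE of the 9 guanylate-binding protein genes (red) and of sums of their counts (black) on the same axis, with Gbp10 highest at 2.95 and Gbp9 lowest at 0.42, while all genes centre near 0.

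The members could be ranked by the size of their rise from the 4 ratios of an AAV-IL-27 to an AAV-ctrl library (log2 CPM with TMM factors). Gbp10 (2.88 to 3.03), Gbp2 (2.32 to 2.42) and Gbp6 (1.95 to 2.00) each lay clear of the next. The values of Gbp10 and Gbp6 depend on how shared reads were divided between them, and their sum had a log2 fold change of 2.21, below the 2.37 of Gbp2. Gbp4 (1.52 to 1.73) and Gbp3 (1.54 to 1.62) overlapped, as did Gbp7 (1.395 to 1.535) with Gbp5 (1.18 to 1.53) and Gbp5 with Gbp8 (1.248 to 1.345). The range of Gbp4 also overlapped those of Gbp7 and Gbp5. Genes whose ranges overlapped could not be told apart. Gbp9 (0.37 to 0.47) lay below all the others. These are ranges of 2 libraries against 2 and are given without a test.

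By their mean FPKM, Gbp4 stood at percentile 98.3 of all genes of the table in AAV-IL-27, against 94.0 in AAV-ctrl, and Gbp10 at 91.3 in AAV-IL-27, against 54.4 in AAV-ctrl. The order of the levels also differed between the groups. In AAV-IL-27 the FPKM ran from Gbp4 over Gbp2, Gbp6, Gbp9, Gbp8, Gbp7, Gbp10 and Gbp3 to Gbp5, where Gbp6, Gbp9 and Gbp8 overlapped in a chain. In AAV-ctrl it ran from Gbp9 over Gbp4, Gbp8, Gbp2, Gbp6, Gbp7, Gbp5 and Gbp3 to Gbp10, where Gbp5 and Gbp3 overlapped. Gbp9 made up 11.01% and 10.62% of the summed FPKM of the 9 genes in AAV-IL-27 libraries, against 23.2% and 23.0% in AAV-ctrl libraries. Gbp2 went the other way, with 19.8% and 20.5% in AAV-IL-27 and 11.57% and 11.96% in AAV-ctrl. Gbp10 made up 6.08% and 6.12% in AAV-IL-27 and 2.30% and 2.46% in AAV-ctrl. The share of Gbp4 was 25.1% and 22.9% in AAV-IL-27 and 22.9% and 22.7% in AAV-ctrl, so that the groups overlapped.

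**Figure D3:**
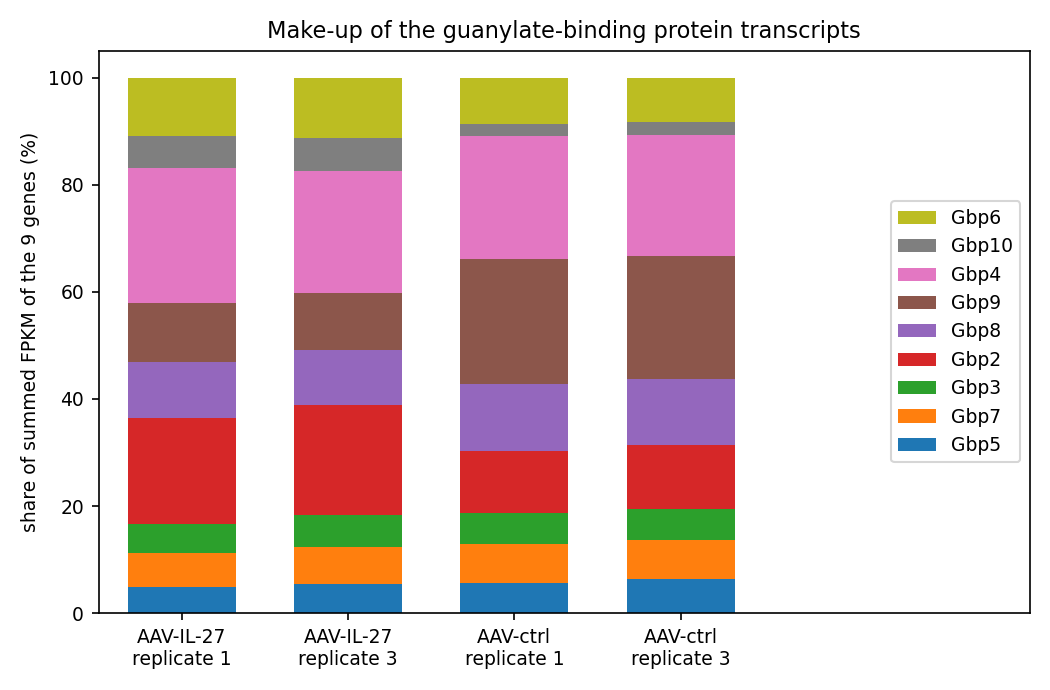
Share (%) of each gene in the summed FPKM of the 9 guanylate-binding protein genes, 1 bar per library, AAV-IL-27 libraries left and AAV-ctrl libraries right. The segment of Gbp9 is 10.62% to 11.01% in AAV-IL-27 and 23.0% to 23.2% in AAV-ctrl, and that of Gbp2 is 19.8% to 20.5% and 11.57% to 11.96%.

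Several of these genes share reads, and the authors' counts were divided among them by software. The count of each of the 9 had a decimal part in all 4 libraries, whereas 64.9% to 65.1% of the values of a library were whole. The sharing was measured on GENCODE M21 transcripts (GRCm38) as the percentage of a gene's distinct stretches of 50 and of 100 bases that also occur in another gene. Gbp6 and Gbp10 were near-copies: 90.2% of the 50-base stretches of Gbp6 and 82.5% of those of Gbp10 occurred elsewhere, as did 82.9% and 70.9% of their 100-base stretches. Most of this sharing was with each other (62.3% of Gbp6 in Gbp10, and 70.6% of Gbp10 in Gbp6) and with Gm43302, a GENCODE gene that spans both loci (chromosome 5, 105214907 to 105293695, minus strand) and has no row in the deposited table. The other chromosome 5 genes shared fewer 50-base stretches, with 21.2% in Gbp8, 11.9% in Gbp4 and 9.56% in Gbp9, and at 100 bases these were 3.81%, 2.62% and 2.01%. GENCODE draws these 3 genes as overlapping on the same strand, with Gbp8 from 105014150 to 105139540, Gbp9 from 105077630 to 105139539 and Gbp4 from 105115767 to 105139586. Their single values are therefore uncertain as well. On chromosome 3, 12.7% of Gbp7 was shared at 50 bases, against 3.83% of Gbp3, 2.07% of Gbp2 and 0.234% of Gbp5. Most of that of Gbp7 (10.5%) was with the processed pseudogene Gm43802. GENCODE places Gm43802 inside Gbp7 on the same strand (142547882 to 142548518), so this part is not sharing with a separate locus. With Gbp3, Gbp7 shared 2.24%.

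**Figure D4:**
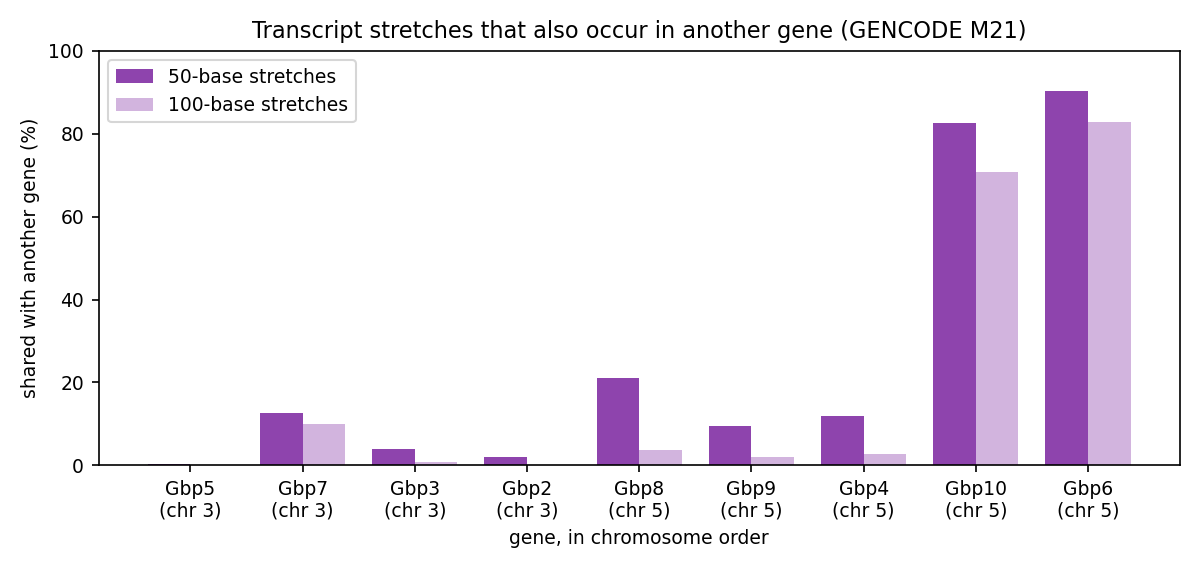
Percentage of each gene's distinct 50-base (dark) and 100-base (light) transcript stretches that also occur in a transcript of another gene, in GENCODE M21. Gbp6 and Gbp10 stand far above the other 7 genes, at 90.2% and 82.5% for 50 bases. The bars include sharing with genes annotated at the same locus, which are Gm43302 for Gbp6 and Gbp10 and Gm43802 for Gbp7. Between Gbp6 and Gbp10 alone it was 62.3% of Gbp6 and 70.6% of Gbp10 for 50 bases.

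The single values of Gbp6 and Gbp10 are therefore uncertain, while their sum does not depend on how reads were divided between them. The sum was 9649 and 9737 expected counts in AAV-IL-27, against 2122 and 2106 in AAV-ctrl, with libraries of a group almost equal. It rose 4.64-fold (log2 fold change 2.21 ± 0.047, edgeR adjusted p = 5.73e-09 in a fit with the sum in place of the genes). The deposited counts put Gbp6 at 2.19 and 2.26 times Gbp10 in AAV-IL-27, against 4.63 and 4.14 times in AAV-ctrl. Summed over the 4 chromosome 3 genes the counts were 15946 and 16765 in AAV-IL-27 and 4706 and 4931 in AAV-ctrl, a log2 fold change of 1.77 ± 0.050 (edgeR adjusted p = 3.60e-08). Over the 5 chromosome 5 genes they were 34898 and 32711 in AAV-IL-27 and 13440 and 13215 in AAV-ctrl, a log2 fold change of 1.35 ± 0.048 (edgeR adjusted p = 1.35e-07). The sum of all 9 rose 2.79-fold (1.48 ± 0.042, edgeR adjusted p = 3.46e-08). The difference between the clusters was not tested.

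The genes known to act before, beside and after guanylate-binding proteins moved less evenly. All 9 immunity-related GTPases, which act with guanylate-binding proteins on pathogen vacuoles, rose (median log2 fold change 2.27), led by Gm4951 at 6.59 ± 0.10 and Iigp1 at 4.62 ± 0.067 (edgeR adjusted p = 1.05e-09 each). Gm4951 was near the floor in AAV-ctrl, at 0.36 FPKM in each library, against 35.2 and 34.7 FPKM in AAV-IL-27. With limma on log2(FPKM + 1) its log2 fold change was 4.72. Of 5 other large GTPases measured, the very large interferon-inducible GTPase Gvin1 (1.14 ± 0.066, adjusted p = 7.92e-06) and Gm4070 (1.96 ± 0.058, adjusted p = 5.98e-08) rose. The 3 atlastins, relatives of guanylate-binding proteins that shape the endoplasmic reticulum, did not pass (log2 fold change -0.13, -0.01 and -0.05 for Atl1, Atl2 and Atl3), and Atl3 changed sign when AAV-IL-27 replicate 3 was left out.

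Among 17 genes of the signal that induces guanylate-binding proteins, 10 rose, 4 fell and 3 did not pass (median 0.31), and 6 rose when scaled to T cell markers. Irf1, a transcription factor that binds the ISRE, stood at 251 and 235 FPKM in AAV-IL-27, against 115 and 113 FPKM in AAV-ctrl (1.14 ± 0.051, adjusted p = 5.04e-07). Ifng, which encodes interferon gamma, a strong inducer of these GTPases, stood at 37.4 and 33.5 FPKM in AAV-IL-27, against 6.36 and 6.06 FPKM in AAV-ctrl (2.56 ± 0.099, adjusted p = 2.24e-07). Both had groups far apart. On the receptor side Il27ra (-0.45 ± 0.054, adjusted p = 0.000203) and Il6st (-0.63 ± 0.065, adjusted p = 0.000105) fell, as did Ifngr2 (-0.78 ± 0.12, adjusted p = 0.00247) and the kinase Jak1, whereas the receptor chain Ifnar2 (0.39, adjusted p = 0.000408) and the kinase Jak2 (0.31, adjusted p = 0.00595) rose.

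Among 10 genes of inflammasomes and pyroptosis, a form of lytic cell death, 7 rose, 2 fell (Nlrc4 and Il18) and 1, Aim2, did not pass (median 0.71). Neither fall passed when replicate 1 of AAV-IL-27 or of AAV-ctrl was left out or by DESeq2, and 1 of them passed when replicate 3 of either group was left out. Casp4, which encodes caspase-11, the sensor of bacterial lipopolysaccharide that guanylate-binding proteins help to activate, stood at 29.2 and 27.7 FPKM in AAV-IL-27, against 8.72 and 9.65 FPKM in AAV-ctrl (1.66 ± 0.091, edgeR adjusted p = 1.57e-06). Casp1 rose by 1.424 ± 0.089 (adjusted p = 4.75e-06) and Nlrp1b by 0.99 ± 0.10 (adjusted p = 8.45e-05). Several of these genes are also expressed by myeloid cells. In the same libraries 9 of 11 neutrophil markers rose, while of 12 monocyte and macrophage markers 7 fell and 1 rose. The part of these cells was not tested.

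The transcripts of proteins that target or modify guanylate-binding proteins moved little. Of 10 genes of the ATG8 family and its conjugation, which in mouse cells is needed to place these GTPases on vacuoles, 4 rose and 6 did not pass (median 0.14). Gabarapl1 rose by 0.75 ± 0.14 (edgeR adjusted p = 0.00284), Gabarapl2 by 0.32 ± 0.061 (0.00324) and Atg3 by 0.20 ± 0.058 (0.0227). By DESeq2 and with other library scalings 2 rose, and 1 did when scaled to T cell markers. With AAV-ctrl replicate 1 left out 1 rose, and 2 did with replicate 3 of either group left out. Of 6 genes of protein prenylation and of the processing of prenylated proteins, 1 rose and 5 did not pass. The gene that rose was Zmpste24, a processing gene (0.36 ± 0.062, edgeR adjusted p = 0.00191), which did not pass when scaled to T cell markers.

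**Figure D5:**
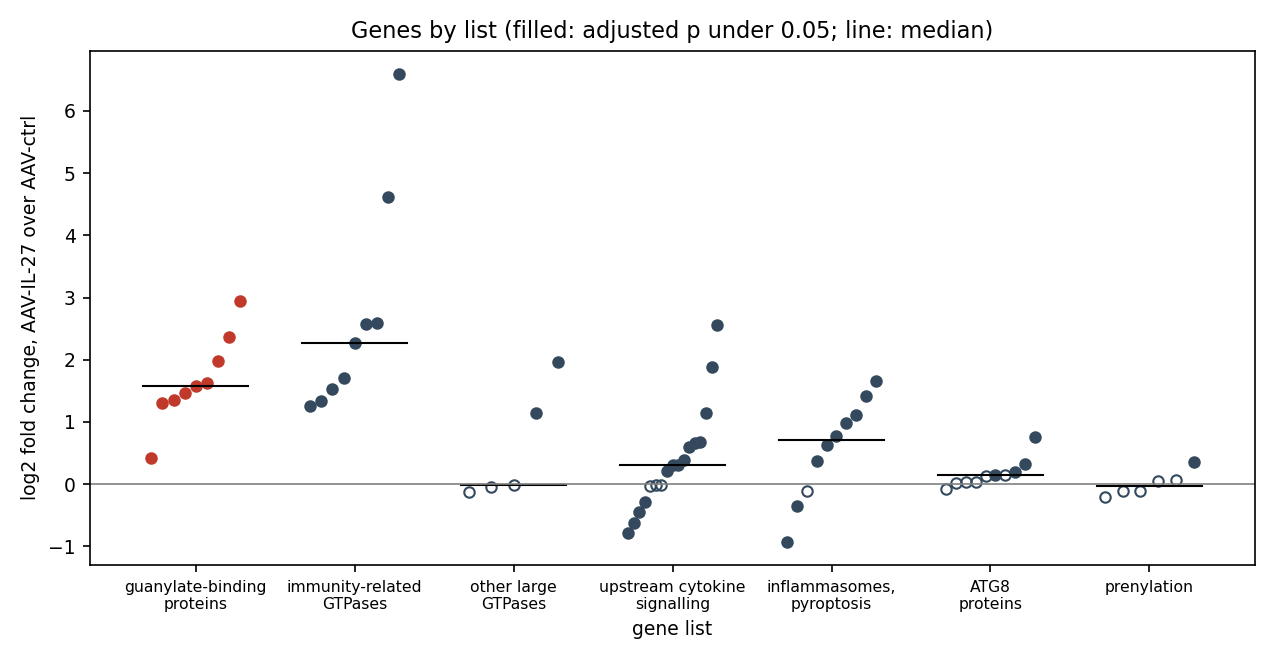
Log2 fold change of AAV-IL-27 over AAV-ctrl for each tested gene of 7 lists (1 point per gene, filled where the adjusted p is under 0.05, line at the list's median). The guanylate-binding proteins (red, median 1.58) and the immunity-related GTPases (median 2.27) lie wholly above 0, while the other lists hold genes on both sides of it.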

How the data were processed

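RNA-seq of 4 libraries, 2 per group, was used. The authors deposited expected counts per gene, which need not be whole, and a second set of values taken here as FPKM (scaled by gene length and by library total). That unit is inferred from the values, since the file headers say only that these are expression values. Per the submitters' processing notes, the build was GRCm38.p6 and the tools included RSEM 1.2.12, Bowtie2 2.2.5, HISAT2 2.0.4 and DESeq2 1.4.5, with no roles given. Whether counting was stranded, and the read length in a clear form, are not given in the sources used here. The authors' 4 columns of group means were not used.

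Counts were rounded to whole numbers, filtered with filterByExpr, scaled with TMM and tested in R 4.3.3 with edgeR 4.0.16 (quasi-likelihood, robust, two-sided, no block). DESeq2 1.42.0 and limma 3.58.1 served as alternatives. SE is the log2 fold change divided by the square root of F. Sums of members replaced them in the table before refitting. By Gene number, 16921 genes matched RefSeq. Strands and transcripts came from GENCODE M21, and upstream sequences from RefSeq. The fit was tested on simulated counts. A protein table was not used here, so near-copies were grouped by shared 50-base stretches (at least 20% in either gene), a choice made after seeing the data.

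The members and lists were chosen with earlier results of these data known. Named were all members, Gbp2b, 5 signalling genes, the genes with the smallest p of each list (3, or 2 for immunity-related GTPases), the 2 highest markers of each cell type, and the 5 genes nearest to the family in pattern. A result under this rule is not reported here. Ifngr2, Ifnar2, Jak1, Jak2, Nlrc4, Il18, Aim2, Atl1 and Atl2 were named after their values were seen. Libraries of a group come from separate mice, and differed beyond sampling noise (chi-square over its degrees of freedom 6.79 for the AAV-IL-27 pair, 2.55 for the AAV-ctrl pair).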

Additional observations from a re-analysis of the deposited data

How the results depend on the processing

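Each of the 9 guanylate-binding protein genes rose and passed the threshold under all 13 alternatives run (117 of 117 values), and the 4 sums did so under all 11 run for them. Leaving out 1 library at a time, the log2 fold change of the family sum ranged from 1.46 to 1.51. The number of genes changed in all depended on the setting. DESeq2 called 3185, and leaving out 1 library gave 2635 to 4886 (2635 with AAV-ctrl replicate 1 left out, 2743 with AAV-ctrl replicate 3 left out), against 5023. Of the 5023, 2745 were higher and 2278 lower. Upper-quartile factors gave 2362 higher and 2979 lower, library size alone 2363 and 2975, scaling to T cell markers 1491 and 3633, and limma on log2(FPKM + 1) 2255 and 2505. Under T cell scaling the median over all genes was -0.17, against -0.01 with TMM, and by construction all genes shift alike. With the replicate number as a block 4971 genes were called and it changed no call of the 9 genes. Over genes, the deviations of same-numbered libraries from their group means had a correlation of -0.00071. With so few libraries this cannot show whether equal numbers mark a shared batch, litter or day, and the labels do not say.

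Measured in FPKM in place of counts, the change in share of the family (AAV-IL-27 minus AAV-ctrl, percentage points) was 8.41 for Gbp2, 1.203 for Gbp4, -0.91 for Gbp5, 2.61 for Gbp6, -0.60 for Gbp7, -2.12 for Gbp8, -12.3 for Gbp9 and 3.72 for Gbp10, against 6.31, 2.45, -0.40, 3.85, -0.12, -1.09, -15.1 and 3.83 in counts. That of Gbp3 turned sign, with -0.035 in FPKM and 0.28 in counts. For 7 named genes that did not pass, the sign turned in at least 1 fit with a library left out. The lowest and highest log2 fold changes were -0.11 and 0.012 for Atl3, -0.11 and 0.083 for Cd8b1, -0.088 and 0.022 for Tyrobp, -0.26 and 0.14 for Fcer1g, -0.31 and 0.11 for Siglech, -0.93 and 0.072 for Hbb-bs, and -0.60 and 0.15 for Hba-a1. The cause was not tested. Grouping by protein identity was not run. Depth limits Gbp2b alone of the genes of this family described here.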

Other observations

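The libraries of the AAV-IL-27 group differed mostly in the same direction within a cluster, in part by very little. The 4 chromosome 3 genes were higher in replicate 3 than in replicate 1 (log2 ratio of TMM-scaled CPM of 0.013 for Gbp2, 0.074 for Gbp3, 0.097 for Gbp7 and 0.15 for Gbp5). Of the 5 chromosome 5 genes, 4 were lower in replicate 3 (-0.20 for Gbp4, -0.083 for Gbp8, -0.064 for Gbp9 and -0.027 for Gbp10), and Gbp6 stood at 0.021. In AAV-ctrl the same ratio was between -0.040 for Gbp9 and 0.20 for Gbp5. With 1 pair of libraries per group this is a description.

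The gene length that the deposited counts and FPKM imply differed between libraries in 3 of the 9 genes by more than 2%. For Gbp9 it was 4596 and 4673 bases in AAV-IL-27, against 4979 and 4793 bases in AAV-ctrl. For Gbp4 it was 4004 and 3908 bases in AAV-IL-27, against 4107 and 4036 bases in AAV-ctrl, and for Gbp8 2785 and 2755 bases against 2812 and 2825 bases. In all 3 the AAV-IL-27 libraries lay below the AAV-ctrl libraries. The implied length of Gbp2 was 2461 bases in all 4 libraries. GENCODE draws transcripts of Gbp4, Gbp8 and Gbp9 that start close together (gene ends at 105139586, 105139540 and 105139539 on the minus strand of chromosome 5). Whether the division of reads among them moved with these lengths was not tested.

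The 5 genes outside the family whose centred log2 CPM over the 4 libraries lay nearest to that of the summed members were Adcy6, Kifc1, Cyp11a1, Hmgb2 and Cpne2 (Euclidean distance 0.0233, 0.0385, 0.0435, 0.0518 and 0.0527 on the log2 scale). Hmgb2, a chromatin protein, was the most abundant, at 340 and 336 FPKM in AAV-IL-27 and 130.4 and 129 FPKM in AAV-ctrl (log2 fold change 1.44 ± 0.046, edgeR adjusted p = 9.01e-08). With 4 libraries in 2 groups, nearness shows little beyond a like fold change.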
